A study of Homo sapiens with 4 samples.

Results

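The 285 genes described here are the long noncoding RNAs that LoVo cells express from their autosomes. They were chosen by the measured levels. A gene annotated in GENCODE version 29 (human genome build GRCh38) as lincRNA or antisense, on an autosome and other than H19 and MEG3, entered if it had at least 5 CPM (the gene's counts divided by all gene counts of the library, times 1000000) in both libraries of MET+ or in both libraries of MET-KO cells. Of 58825 gene rows, 12854 carried such an annotation, 3782 of these had at least 1 count, and 285 met the level, 146 lincRNAs and 139 antisense genes. LoVo is an established line from a colon adenocarcinoma whose MET receptor, a tyrosine kinase, is active without its ligand. MET+ cells are the GFP control of wild-type genotype, and MET-KO cells carry a CRISPR/Cas9 disruption of MET. All cells were grown in DMEM with 10% fetal bovine serum and no compound. Each group has 2 libraries, named as biological replicates 1 and 2. Knockout cells were picked as single clones, and the sources used here leave unsaid whether 1 clone or several gave the 2 MET-KO libraries, so a property of a clone and an effect of MET loss cannot be told apart in any comparison.

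Long noncoding RNAs are transcripts without a long reading frame. Some build nuclear bodies, some are only the carriers of small nucleolar RNAs (snoRNAs) or microRNAs in their introns, and many start next to the promoter of a protein-coding gene and run away from it on the other strand. They are usually less abundant and more restricted to a cell type than messenger RNAs.

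Library totals were 8429142 and 10286552 counts for MET+ and 10137583 and 10228991 for MET-KO cells. The targeted gene MET had 2794 and 3272 counts in MET+ and 861 and 965 in MET-KO cells, a log2 fold change of -1.96. Of 9 Y-linked genes 8 were counted in both MET-KO libraries and in neither MET+ library. The sources used here do not say whether the 2 groups come from the same stock of LoVo cells, so a difference between stocks and the loss of MET cannot be told apart. Of 12 colon epithelial markers, 6 had at least 5 CPM in every library, among them EPCAM, CDH1 and KRT18. The list summed to 9507 and 9202 CPM in MET+ and 8371 and 7789 CPM in MET-KO cells. Most of this was KRT18, with 6068 and 5549 against 5158 and 4916 CPM. EPCAM fell from 432 and 413 to 196 and 224 CPM (log2 fold change -1.11) and CDH1 from 142 and 133 to 79.6 and 80.4 CPM (-0.88). CDX1 was at 0 everywhere. CDH17, GPA33, LGALS4 and VIL1 were also lower in MET-KO cells. There CDH17 and GPA33 had 0 counts and LGALS4 and VIL1 at most 3 counts a library. CDX2 (log2 fold change 1.04) and KRT20 (0 counts in MET+, 27 and 28 in MET-KO cells) were higher. Fibroblast, immune and endothelial markers summed to at most 9.24 CPM in any library, with COL1A2, DCN, PTPRC, CD3E and CDH5 among those at 0 in all 4. The part of the Y-linked and epithelial differences in the results below was not tested, and they cannot be told apart from the knockout.

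The libraries were primed on poly(A) tails and read near the 3′ end, so 1 transcript gives about 1 fragment whatever its length, and CPM can be set side by side between genes. The annotated ends below are shown because a poly(A) tail added there would be primed, and reads would lie in or just before these bases. Each is the last 60 bases of the transcript that ends farthest 3′ in GENCODE version 29 on GRCh38, 5′ to 3′ on the strand of the gene, with the poly(A) signal (AATAAA or ATTAAA) nearest the end in capitals where the last 50 bases hold one. The first 3 are abundant in both groups, and the next one was counted in MET+ cells alone. The last 2 had counts in every library and large changes in opposite directions.
MALAT1, chr11:65506457-65506516, plus strand: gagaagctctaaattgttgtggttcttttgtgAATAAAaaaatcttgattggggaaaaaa
NORAD, chr20:36045622-36045681, minus strand: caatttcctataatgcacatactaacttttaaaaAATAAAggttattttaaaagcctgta
ZFAS1, chr20:49295679-49295738, plus strand: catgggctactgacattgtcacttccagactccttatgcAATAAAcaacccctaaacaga
AC105460.1, chr4:103550927-103550986, minus strand: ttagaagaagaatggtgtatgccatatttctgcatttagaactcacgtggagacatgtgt
CYTOR, chr2:87636681-87636740, plus strand: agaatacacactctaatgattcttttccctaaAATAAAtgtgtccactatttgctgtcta
FLJ20021, chr4:101348824-101348883, plus strand: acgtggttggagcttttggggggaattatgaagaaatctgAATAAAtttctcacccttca
A signal lay in the last 50 bases of 181 of the 285 genes (63.5%), against 76.4% of 9985 protein-coding genes chosen by the same level and 45.7% of the 12569 lincRNA and antisense genes outside the set. It was more frequent in the lincRNAs (68.5%) than in the antisense genes (58.3%). AC105460.1 has none there although it gave 1294 and 1643 counts in the MET+ libraries. No match says only that these letters are not in this window.

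Taken over the 285 genes, levels were low and depended on the group. They took 0.708% and 0.720% of all counts in MET+ and 0.713% and 0.848% in MET-KO cells. The median of their mean level was 8.33 CPM, against 28.4 CPM for the 9985 protein-coding genes. Only 143 of the 285 reached 5 CPM in both groups, 35 did so in MET+ cells alone and 107 in MET-KO cells alone, so 49.8% met the level in 1 group. Among the protein-coding genes the same level was met by 8820 in both groups, by 380 in MET+ alone and by 785 in MET-KO alone, or 11.7% in 1 group. These levels chose the genes, so the split is a description and was not tested. With a median this close to the limit of 5 CPM, small differences also move a gene across it. Just inside were AC132192.2 and AC005332.4 (5.03 CPM in the lower of the 2 libraries that decided) and LINC01023 (5.06 CPM), and just outside were AC108062.1 and UBL7-AS1 (4.96 CPM) and EXOC3-AS1 (4.93 CPM).

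**Figure D1:**
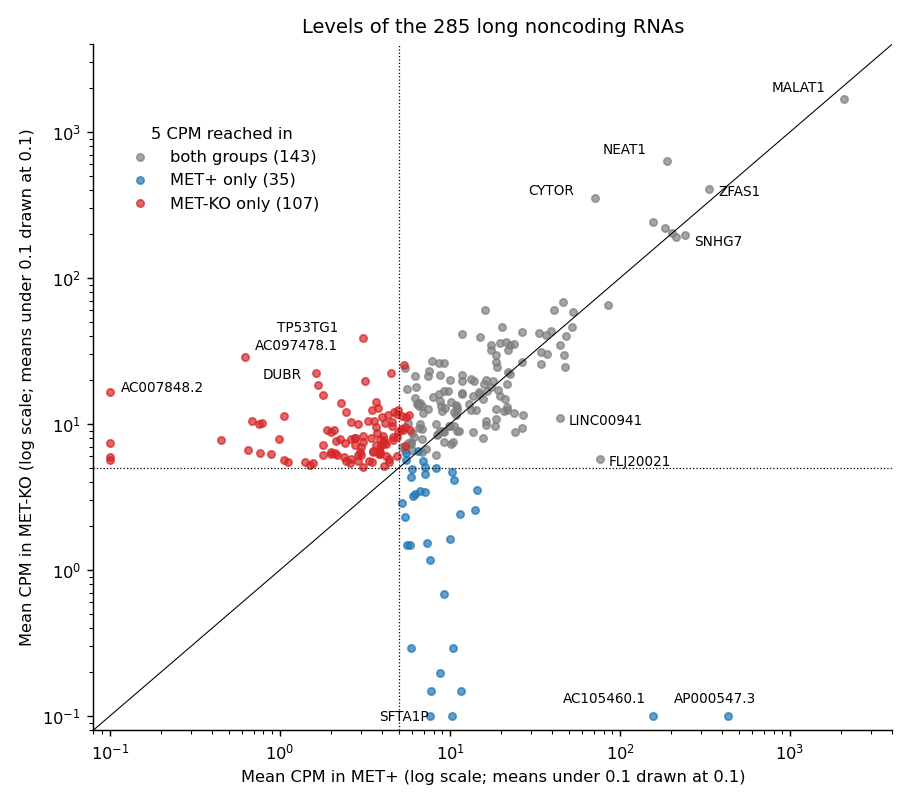
Each point is 1 of the 285 long noncoding RNAs, with its mean CPM over the 2 MET+ libraries (horizontal, log scale) against its mean over the 2 MET-KO libraries (vertical, log scale). Dotted lines mark 5 CPM, and colour shows where both libraries reached it: grey for both groups (143 genes), blue for MET+ alone (35) and red for MET-KO alone (107). AP000547.3 and AC105460.1 stand far from the diagonal, at 0 in MET-KO cells.

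To test changes without favouring either group, p-values were taken from edgeR's quasi-likelihood fit over all 13801 tested genes and read only for the 122 long noncoding RNAs with a mean of at least 10 CPM over the 4 libraries. Above this limit MET-KO cells had 52 of the 122 (42.6%) at a higher and 31 (25.4%) at a lower level at an adjusted p under 0.05, and 39 did not pass. Over all 8899 genes with that mean 25.4% were called higher, 32.9% lower and 58.3% either way, and over its 8400 autosomal protein-coding genes 25.2%, 33.3% and 58.5%. In all 68.0% of the 122 were called. Their median log2 fold change was 0.20 (quartiles -0.30 and 0.83), against -0.06 (quartiles -0.44 and 0.33) for all genes at that mean. The lower MET-KO value exceeded the higher MET+ value for 68 of the 122 (55.7%; 41.6% of all genes), and the higher MET-KO value was under the lower MET+ value for 32 (26.2%; 36.0% of all genes). The lincRNAs had 30 higher and 18 lower of 64, the antisense genes 22 and 13 of 58.

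**Figure D2:**
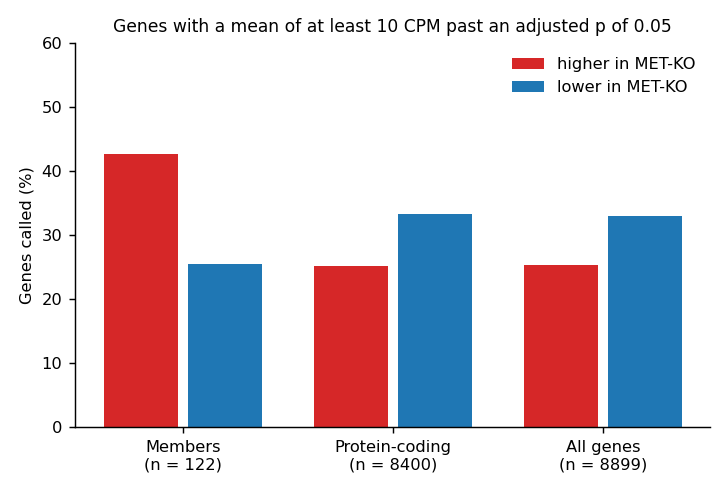
Bars give the percent of genes with a mean of at least 10 CPM that passed an adjusted p of 0.05 in edgeR's quasi-likelihood test, higher (red) or lower (blue) in MET-KO cells, for the 122 long noncoding RNAs, 8400 autosomal protein-coding genes and all 8899 genes. The higher bar is the taller one for the long noncoding RNAs (42.6% against 25.4%) and the shorter one for both other sets.

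Among the 285 were 2 RNAs of nuclear bodies, and the groups lay apart for NEAT1 but overlapped for MALAT1. The bodies themselves were not measured. NEAT1 (ENSG00000245532, chromosome 11, 65422774 to 65445540), the scaffold of paraspeckles, was counted at 182 and 198 CPM in MET+ and at 530 and 739 CPM in MET-KO cells. Both MET-KO libraries were far above both MET+ libraries, with a log2 fold change of 1.63 (SE 0.11, edgeR adjusted p = 7.14e-15). MALAT1 (ENSG00000251562, chromosome 11, 65497688 to 65506516), a splicing-speckle RNA from the neighbouring locus, was the most abundant of the 285 at 1932 and 2219 CPM in MET+ and 1224 and 2112 CPM in MET-KO cells. Its groups overlapped, since MET-KO replicate 2 lay between the MET+ libraries, and the call (log2 fold change -0.43, SE 0.13, edgeR adjusted p = 0.00681) rested on single libraries: it did not pass without MET-KO replicate 1 (-0.12, edgeR adjusted p = 0.265) or without MET+ replicate 2 (-0.30, edgeR adjusted p = 0.0904). MALAT1 alone made up 17.2% to 30.8% of the counts on the 285 genes in a library. The mature end of MALAT1 and the long form of NEAT1 are made without a poly(A) tail, so oligo(dT) libraries do not record every molecule of either RNA.

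Host genes of snoRNAs were the most abundant family after these. They are spliced, and the snoRNAs released from their introns guide the modification of ribosomal and other RNAs, while the exons are often degraded in the cytoplasm. Of 32 listed names of host genes, some for the same gene, 12 were among the 285 and 11 had a mean of at least 10 CPM. Of these 11, 5 were higher, 3 lower and 3 not called (72.7% called, against 58.3% of all genes), with a median log2 fold change of 0.18. Counted instead over every member that holds an annotated snoRNA gene on its strand, 14 had that mean, of which 5 were higher, 3 lower and 6 not called, with a median of -0.02. ZFAS1 (ENSG00000177410, chromosome 20, 49278178 to 49295738) had 361 and 310 CPM in MET+ and 406 and 408 CPM in MET-KO cells. The MET-KO values were the higher ones but the difference did not pass (log2 fold change 0.18, SE 0.09, edgeR adjusted p = 0.0934). It passed with library totals alone (0.28, adjusted p = 0.00529) and with at least 10 counts required in each library (0.22, adjusted p = 0.0351), among 10 alternatives whose adjusted p ran from 0.00529 to 0.617. SNHG7 (ENSG00000233016, chromosome 9), at 265 and 219 CPM against 194 and 198 CPM, fell by 0.40 on the log2 scale (SE 0.09, edgeR adjusted p = 0.000522), a call that was lost without MET+ replicate 1 (adjusted p = 0.052).
SNHG8 (ENSG00000269893, chromosome 4) had 205 and 201 CPM in MET+ and 216 and 191 CPM in MET-KO cells, with overlapping groups (log2 fold change -0.09, SE 0.10). EPB41L4A-AS1 (ENSG00000224032, chromosome 5) had 226 and 203 against 190 and 189 CPM and a log2 fold change of -0.28 (SE 0.09, edgeR adjusted p = 0.0117), and did not pass without MET+ replicate 1 (adjusted p = 0.139) or MET-KO replicate 2 (adjusted p = 0.0686), or with library totals alone (-0.18, adjusted p = 0.101). SNHG25 (ENSG00000266402, chromosome 17) rose, from 163 and 151 to 233 and 253 CPM (0.53, SE 0.09, edgeR adjusted p = 8.51e-06). In this family shifts of the abundant members were small, at most 0.53 in size on the log2 scale for the 6 highest. The large one was SNHG18 (ENSG00000250786, chromosome 5, 9546200 to 9550609), with 4.75 and 4.28 CPM in MET+ and 23.0 and 21.4 CPM in MET-KO cells, a log2 fold change of 2.20 (SE 0.21, edgeR adjusted p = 6.79e-11). SNHG18 starts 125 bases from the semaphorin gene SEMA5A on the other strand, which had 3.44 and 4.47 CPM in MET+ and 28.5 and 28.7 CPM in MET-KO cells.

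Hosts of microRNAs carry the hairpins of small RNAs that repress messenger RNAs through their seed, bases 2 to 8. Poly(A)-primed libraries count the host transcript and not the microRNA, and no level of a microRNA was measured. The sequences below show which microRNAs some hosts that moved, or that share a seed with one, could supply. Left out are the other called hosts, NEAT1, PVT1 and GABPB1-AS1 (higher) and MUC20-OT1 (lower). Also left out is AC016831.6, host of MIR29A and MIR29B1, with a mean of 4.42 CPM and a log2 fold change of -2.36. The sequences were taken from RefSeq on GRCh38.p14 by position inside the gene on its strand, with the seed in capitals.
hsa-miR-34a-5p in MIR34AHG: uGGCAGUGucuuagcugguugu
hsa-let-7a-5p in MIRLET7BHG: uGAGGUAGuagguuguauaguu
hsa-let-7b-5p in MIRLET7BHG: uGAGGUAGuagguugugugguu
hsa-miR-4458 in MIR4458HG: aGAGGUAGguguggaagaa
hsa-miR-7-5p in MIR7-3HG: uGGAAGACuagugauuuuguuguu
hsa-miR-4435 in CYTOR and in MIR4435-2HG: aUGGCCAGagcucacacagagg
MIR34AHG (ENSG00000228526, chromosome 1, 9148011 to 9198906), host of a microRNA known as a p53 target, had 10.2 and 13.3 CPM in MET+ and 36.2 and 46.5 CPM in MET-KO cells. It was higher in both MET-KO libraries (log2 fold change 1.70, SE 0.16, edgeR adjusted p = 6.01e-11). MIRLET7BHG (ENSG00000197182, chromosome 22, 46053869 to 46113928), host of 2 members of the growth-restraining let-7 family, went the other way, with 21.7 and 25.7 CPM in MET+ and 11.4 and 12.2 CPM in MET-KO cells (log2 fold change -1.11, SE 0.17, edgeR adjusted p = 1.39e-06). MIR4458HG, whose microRNA shares the let-7 seed, had 15.5 and 16.9 against 22.3 and 17.6 CPM and was not called (0.20, SE 0.17, edgeR adjusted p = 0.352). MIR7-3HG was at 0 counts in MET+ replicates 1 and 2 and at 62 and 90 counts in MET-KO cells, at least 23.0-fold higher when 0 is read as up to 3 counts per library. Of 28 listed hosts 8 were among the 285. Of the 5 with a mean of at least 10 CPM, 2 were higher (MIR34AHG and MIR4435-2HG), 1 lower and 2 not called (3 of 5 called, against 58.3% of all genes), with a median of 0.22. Counted over every member that holds an annotated microRNA gene on its strand, CYTOR, NEAT1 and PVT1 included, 12 had that mean, of which 6 were higher, 2 lower and 4 not called, with a median of 0.39.

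CYTOR and MIR4435-2HG are copies of 1 locus on chromosome 2 and have both been studied as promoters of tumour growth. CYTOR (ENSG00000222041, 87454781 to 87636740) had 65.7 and 77.4 CPM in MET+ and 372 and 332 CPM in MET-KO cells. All MET-KO values lay above the MET+ values by several fold, with a log2 fold change of 2.19 (SE 0.11, edgeR adjusted p = 1.92e-18). MIR4435-2HG (ENSG00000172965, 111036776 to 111523376) had 6.41 and 6.03 against 14.0 and 16.2 CPM (1.18, SE 0.21, edgeR adjusted p = 1.59e-05). The last 300 bases of MIR4435-2HG match CYTOR over at least 100 bases at 98% identity or more. Reads of that end may have been assigned to either copy or discarded, so the 2 values cannot be taken as independent. The last 300 bases of CYTOR had no such match in a gene elsewhere. Their promoters are shown because they hold the motif of the AP-1 transcription factors, TGACTCA or its reverse complement TGAGTCA, which is in capitals. Each is 250 bases before to 50 after the RefSeq start on GRCh38.p14.
CYTOR, chr2:87455177-87455476, plus strand: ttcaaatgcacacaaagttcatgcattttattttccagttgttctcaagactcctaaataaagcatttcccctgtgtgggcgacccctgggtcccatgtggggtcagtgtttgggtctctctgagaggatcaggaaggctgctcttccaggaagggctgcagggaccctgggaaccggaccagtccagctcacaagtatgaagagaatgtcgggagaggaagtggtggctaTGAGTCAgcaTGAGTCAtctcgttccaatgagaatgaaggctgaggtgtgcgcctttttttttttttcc
MIR4435-2HG, chr2:111495112-111495411, minus strand: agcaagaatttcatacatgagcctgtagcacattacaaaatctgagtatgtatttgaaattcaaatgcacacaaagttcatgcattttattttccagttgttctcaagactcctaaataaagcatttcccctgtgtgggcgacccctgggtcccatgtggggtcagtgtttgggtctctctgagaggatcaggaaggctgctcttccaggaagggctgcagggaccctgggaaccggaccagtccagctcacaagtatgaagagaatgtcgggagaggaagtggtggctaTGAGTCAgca
The 2 windows share a run of 241 bases but start at different points of it. RefSeq promoters were matched for 119 of the 285 genes. The AP-1 letters were in 6.72% of these, in 4.92% of all 27305 promoters of that table and in 2.74% of 8043 promoters of autosomal protein-coding genes of the same level. Among the genes with a mean of at least 10 CPM they were in 5 of 29 promoters of those called higher (17.2%), counting both copies above, in 0 of 16 of those called lower and in 1 of 18 of those not called. The 3 others called higher were EIF3J-DT, PPP1R26-AS1 and UNC5B-AS1. The TEAD letters GGAATG or CATTCC were in 13.4% of the 119 promoters, in 14.0% of all and in 10.2% of those coding promoters, and in 13.8% of those called higher, 12.5% of those called lower and 16.7% of those not called. The E-box CACGTG was in 9.24% of the 119, 7.43% of all and 10.5% of the coding promoters. A match is a description of letters and not a measured site.

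**Figure D3:**
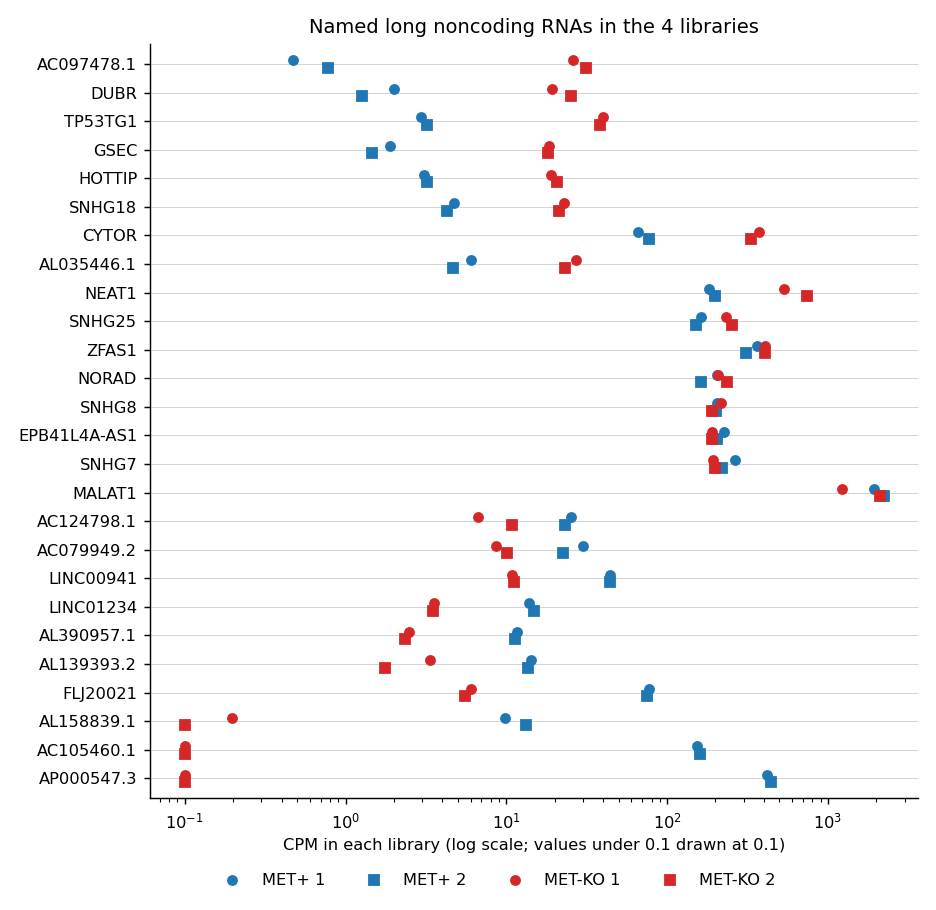
CPM of the most abundant, the most changed and the most group-restricted long noncoding RNAs in each of the 4 libraries (log scale), ordered by log2 fold change, with MET+ in blue, MET-KO in red, replicate 1 as circles and replicate 2 as squares. The abundant genes in the middle differ little between groups, while AP000547.3 and AC105460.1 drop from 416 and 154 CPM or more to 0.

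The antisense transcripts of the HOX clusters lie among the genes that set positional identity. Of 18 listed transcripts 4 were among the 285, all with a mean of at least 10 CPM: 3 were higher, 0 lower and 1 not called, beside 25.4% of all genes and 42.6% of the 122 called higher. HOTTIP, HOXA11-AS and HOXA10-AS lie on chromosome 7, whose coding genes had a median log2 fold change of 0.48. HOTTIP (ENSG00000243766, chromosome 7, 27198575 to 27207259), known to keep the distal HOXA genes active, had 3.08 and 3.21 CPM in MET+ and 18.9 and 20.7 CPM in MET-KO cells (log2 fold change 2.55, SE 0.23, edgeR adjusted p = 1.72e-11). HOXA11-AS had 8.42 and 7.29 against 26.0 and 27.9 CPM (1.68, SE 0.18, edgeR adjusted p = 7.57e-10). The coding genes beside them moved likewise, HOXA13 by 1.33 and HOXA11 by 1.82 on the log2 scale. HOXB-AS3, at 8.90 and 5.93 against 12.0 and 13.2 CPM, had a log2 fold change of 0.68 (SE 0.22, edgeR adjusted p = 0.0095), which did not pass without MET+ replicate 2 (0.42, adjusted p = 0.16) or in DESeq2's Wald test (adjusted p = 0.066). HOXA10-AS, at 12.5 and 11.1 against 15.4 and 17.1 CPM, was not called (0.37, SE 0.18, edgeR adjusted p = 0.0895). Exons of all 4 overlap a HOX gene on the other strand, so their counts are uncertain if strand was not used.

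A list of transcripts linked to p53, the tumour suppressor that responds to DNA damage, had 4 members among the 285. All had a mean of at least 10 CPM, and 3 were higher, 0 lower and 1 not called. Beside them, 25.4% of all genes and 42.6% of the 122 were called higher. The first one below lies on chromosome 7, whose coding genes had a median log2 fold change of 0.48. TP53TG1 (ENSG00000182165, chromosome 7, 87325225 to 87345515) had 2.97 and 3.21 CPM in MET+ and 39.8 and 38.0 CPM in MET-KO cells. This was the highest MET-KO level of the 107 genes that met the level there alone, with a log2 fold change of 3.54 (SE 0.20, edgeR adjusted p = 6.37e-17). It starts 166 bases from CROT, a peroxisomal carnitine transferase gene, which rose by only 1.04 (SE 0.22). NEAT1 and MIR34AHG, described above, were higher too, and PURPL, with 21.5 and 21.9 against 15.9 and 21.9 CPM, was not called (-0.30, SE 0.16, edgeR adjusted p = 0.115), though it was without MET-KO replicate 2 (-0.51, adjusted p = 0.0401).
A list of RNAs that have been studied in colorectal cancer held 38 names, some of them for the same gene, and 11 were among the 285. Of the 9 with a mean of at least 10 CPM 3 were higher, 2 lower and 4 not called (55.6% called, against 58.3% of all genes). Their median log2 fold change was 0.17. PVT1, beside MYC, had 21.5 and 18.8 CPM in MET+ and 43.9 and 48.0 CPM in MET-KO cells (1.09, SE 0.13, edgeR adjusted p = 1.27e-08). CRNDE, named for its expression in colorectal neoplasia, had 38.3 and 36.3 against 31.0 and 29.2 CPM (-0.41, SE 0.13, edgeR adjusted p = 0.00747). NORAD, which holds PUMILIO proteins and guards chromosome number, had 204 and 163 against 206 and 236 CPM and was not called (0.17, SE 0.10, edgeR adjusted p = 0.137), though it was without MET+ replicate 1 (0.32, adjusted p = 0.0337).

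Other large increases came from genes of little known function. AC097478.1 (ENSG00000251095, chromosome 4) had 4 and 8 counts in MET+ and 263 and 319 in MET-KO cells, or 0.475 and 0.778 against 25.9 and 31.2 CPM, a log2 fold change of 5.35 (SE 0.29, edgeR adjusted p = 3.75e-17). DUBR (ENSG00000243701, chromosome 3), known from muscle differentiation, had 2.02 and 1.26 CPM in MET+ and 19.1 and 25.2 CPM in MET-KO cells (3.67, SE 0.26, edgeR adjusted p = 7.79e-14). GSEC (ENSG00000280832, chromosome 11) had 1.90 and 1.46 against 18.5 and 18.2 CPM (3.36, SE 0.27, edgeR adjusted p = 8.55e-13). It starts 53 bases from the sialyltransferase gene ST3GAL4, which went from 9.85 and 7.0 to 70.8 and 61.8 CPM. AL035446.1 (chromosome 6) had 6.05 and 4.67 CPM in MET+, on both sides of the level of 5 CPM, and 27.1 and 23.3 CPM in MET-KO cells.

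The largest losses ended at 0 counts. AP000547.3 (ENSG00000283633, chromosome 22, 16601911 to 16615111) had 3510 and 4578 counts in MET+ cells, 416 and 445 CPM, which made it the fifth most abundant of the 285 by mean level. It had 0 counts in both MET-KO libraries, at least 1462-fold lower. Its exons overlap those of the pseudogene TPTEP1 on the same strand, which had 703 and 942 counts in MET+ and 0 in MET-KO cells, so the counts of the 2 cannot be separated fully. Genes farther along chromosome 22 did not share the loss: IL17RA (17084954 to 17115694) had 30.7 and 37.1 against 26.0 and 34.2 CPM. AC105460.1 (ENSG00000250920, chromosome 4, 103550927 to 103559127) had 1294 and 1643 counts in MET+ and 0 in MET-KO cells, at least 532-fold lower. CENPE, a kinetochore motor gene at 103105806 to 103198409 of chromosome 4, had 37.1 and 33.0 against 29.5 and 37.6 CPM, with overlapping groups. Farther off, UBE2D3 and CISD2 were not called (log2 fold changes -0.18 and -0.10). SLC39A8, at 102251041 to 102431258, fell from 37.0 and 32.1 to 8.38 and 9.68 CPM (-2.03, SE 0.16, edgeR adjusted p = 1.13e-12). Whether these changes along chromosome 4 are linked was not tested. The nearest coding genes, CCT8L2 for AP000547.3 and TACR3 for AC105460.1, are not described here, so how far either loss reaches was not tested.
FLJ20021 (ENSG00000254531, chromosome 4, 101347780 to 101348883) was lower but present, with 77.4 and 75.1 CPM in MET+ and 6.02 and 5.57 CPM in MET-KO cells (log2 fold change -3.81, SE 0.15, edgeR adjusted p = 2.40e-21). It starts inside PPP3CA, 498 bases from the start of that gene and on the other strand, so the genes overlap. PPP3CA, which encodes the catalytic subunit of calcineurin, fell from 643 and 623 to 63.2 and 77.8 CPM. LINC00941 (chromosome 12), at 44.4 and 43.9 against 10.9 and 11.1 CPM, fell by 2.10 on the log2 scale (SE 0.15, edgeR adjusted p = 2.99e-14) and overlaps a second annotated gene of that name on its strand. AC079949.2 (chromosome 12) had 30.1 and 22.6 against 8.58 and 10.2 CPM, and AC124798.1 (chromosome 11) had 25.3 and 23.0 against 6.71 and 10.9 CPM. Both were called, with log2 fold changes of -1.58 (SE 0.18, edgeR adjusted p = 3.35e-09) and -1.56 (SE 0.19, edgeR adjusted p = 1.38e-08).

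Below the mean of 10 CPM 163 genes are described without a test. Among the 35 that reached the level in MET+ cells alone, LINC01234 had 13.9 and 15.0 CPM in MET+ and 3.55 and 3.52 CPM in MET-KO cells. AL139393.2, beside the kinase gene MAP3K4, had 14.2 and 13.7 against 3.35 and 1.76 CPM. AL158839.1 had 83 and 137 counts in MET+ and 2 and 1 in MET-KO cells, and AL390957.1 had 11.6 and 11.4 against 2.47 and 2.35 CPM. Counts of 0 in both libraries of a group were seen for 4 genes in MET+ and 3 in MET-KO cells, AP000547.3 and AC105460.1 included. SFTA1P (chromosome 10, 10784437 to 10794980) had 91 and 99 counts in MET+ and 0 in MET-KO cells, at least 34.7-fold lower, and the RNA-binding protein gene CELF2 that starts 3417 bases away had 400 and 416 counts against 0. AC007848.2 (chromosome 12) had 0 counts in MET+ and 186 and 153 in MET-KO cells, at least 51.4-fold higher. Its nearest coding gene, the neurotrophin NTF3, likewise had 0 in MET+ cells and 18 in each MET-KO library.

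These pairs raise the question of how far a long noncoding RNA follows its nearest coding gene. The nearest gene was head to head (starts within 2 kb on opposite strands) for 137 of the 285, overlapping on the opposite strand for 59, overlapping on the same strand for 7 and apart for 82. Both changes could be fitted for 248 pairs. Across these pairs Pearson's r was 0.55 and Spearman's rho 0.45, given as a description because pairs share libraries and genes are not replicates. The level that chose the members shaped these values, since 49.8% entered through 1 group alone. By position, rho was 0.49 for 132 head-to-head pairs, 0.60 for 63 pairs that lie apart and -0.05 for 48 pairs that overlap on opposite strands. Among 7374 protein-coding genes of the same level, each with its nearest coding gene, rho was 0.28, and 0.33 for the head-to-head ones, but only 11.7% of coding genes entered through 1 group. The share of pairs whose changes had the same sign was 58.9% for the members and 59.6% for the coding genes, 61.4% and 62.4% for head-to-head pairs, and 37.5% and 57.7% for pairs overlapping on opposite strands.
With a mean of at least 10 CPM, where the rule favours neither group, rho was 0.42 (r 0.39) over 99 pairs and 0.30 (r 0.25) over 6290 coding genes, with the same sign in 59.6% and 60.2%. At that mean rho was 0.57 for 50 head-to-head pairs (0.35 for coding genes), 0.26 for 22 pairs apart (0.28) and 0.20 for 25 overlapping on opposite strands (0.31), so pairs apart no longer stood highest. Taking away the median of the chromosome from both values left rho at 0.38 over the 248 pairs.
Where both partners had a mean of at least 10 CPM and were called, 26 of 36 pairs (72.2%) moved the same way and 10 opposite ways, against 73.2% of 1696 such coding pairs moving the same way. FLJ20021 with PPP3CA and GSEC with ST3GAL4 are examples of the first. Of the second, EIF3J-DT rose from 14.1 and 9.33 to 20.9 and 22.6 CPM (log2 fold change 0.81, SE 0.18, edgeR adjusted p = 0.000339), while EIF3J, a translation initiation factor gene 134 bases away, fell from 319 and 322 to 115 and 127 CPM (-1.50, SE 0.09, edgeR adjusted p = 1.32e-15). MNX1-AS1 rose by 0.96 (SE 0.22) and the homeobox gene MNX1 154 bases away had a log2 fold change of -1.07 (SE 0.12). UNC5B-AS1, which lies within the netrin receptor gene UNC5B, went from 18.9 and 15.8 to 33.0 and 36.2 CPM, and UNC5B from 73.2 and 61.1 to 28.2 and 35.2 CPM. These pairs were named after their values were seen, from the 10.
Among the most abundant head-to-head pairs the partners moved little: ZFAS1 with ZNFX1 (0.18 and 0.37), GABPB1-AS1 with GABPB1 (0.45 and 0.09), AC093673.1 with ZYX (0.05 and -0.31) and AL445524.1 with TSNAX (0.47 and 0.14, all log2 fold changes). The call of GABPB1-AS1 was lost without MET-KO replicate 2 (0.24, adjusted p = 0.158). SNHG19 with TRAF7, an exception, had -0.47 and 0.42, both called. Of the most abundant overlapping genes, SNHG12 had 0.05 and TRNAU1AP -0.40, AC092747.4 had 0.50 and MED21 0.14, and AL365181.3 had -0.28 over BCAN, which was at 0 counts, a call that was lost without any one of MET+ replicate 1, MET+ replicate 2 or MET-KO replicate 2 (adjusted p = 0.0889, 0.094 and 0.266). The exons of 149 of the 285 genes overlap an exon of a gene on the other strand and 51 one on the same strand. The strand setting of the counting is not given in the sources used here, so reads of such partners may have been counted together. Without the 149, 54 genes with a mean of at least 10 CPM remained, of which 27 were higher and 16 lower.

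Chromosome 7 had 28 of the 285 members, next to 27 on chromosome 1, and 11 of the 52 called higher. Of its 28 genes 12 met the level in both groups, 14 in MET-KO alone and 2 in MET+ alone. Of its 14 with a mean of at least 10 CPM 11 were higher and 1 lower. Over all genes at that mean 25.4% were called higher and 32.9% lower, and over the 122 long noncoding RNAs 42.6% and 25.4%. For the 564 tested protein-coding genes on chromosome 7 the median log2 fold change was 0.48, and the share of them called was not counted. ELFN1-AS1, at 12.7 and 17.3 against 39.6 and 39.4 CPM, had 1.28 and SNHG15, at 23.5 and 19.2 against 35.2 and 37.9 CPM, had 0.68. EPHA1-AS1 was the lower one (20.8 and 20.8 against 11.6 and 12.7 CPM), beside EPHA1, whose log2 fold change was -2.00. Without chromosome 7, the other 108 genes counted 41 higher and 30 lower ones and their median was 0.12. On chromosome 12, where the coding median was -0.34, the 24 members had a median of -0.41. The level that chose them shaped this value, since 8 met it in MET+ cells alone and 5 in MET-KO cells alone. Of the 9 on chromosome 12 with a mean of at least 10 CPM 1 was higher, 4 were lower and 4 not called. Coding medians were lower still on chromosomes 14 (-0.55), 5 (-0.46) and 15 (-0.45). At that mean chromosome 14 had 0 higher and 2 lower of 2 members, and chromosome 5 had 3 higher and 3 lower of 10. Chromosome 15 had 2 higher and 1 lower of 3, so members did not follow the coding median on every chromosome. Set against the coding median of its own chromosome, a long noncoding RNA with a mean of at least 10 CPM was higher in 77 cases and lower in 45, with a median difference of 0.22.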

How the data were processed

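RNA of 2 MET+ and 2 MET-KO LoVo samples was sequenced from QuantSeq 3′ mRNA (FWD) libraries. The deposited files hold raw read counts per Ensembl gene, which the authors did not normalize. The submitters' processing notes name bcl2fastq, cutadapt 1.16, FastQC 0.11.7, MultiQC 1.5, STAR 2.5.4a, featureCounts 1.6.2 and DESeq2 1.18.1 on GRCh38, and the strand and overlap settings of the counting are not given in the sources used here. Rows for 99 spike-ins held 0 counts and were left out. Types, positions and transcripts were taken from GENCODE version 29 (58552 IDs matched, 273 did not).

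The 285 genes, the gene lists and the named-gene rule were chosen with earlier results of these data known. Named genes were MALAT1 and NEAT1, the 10 highest by mean CPM, the 6 largest changes in each direction at a mean of at least 10 CPM with groups that do not overlap, the 6 highest of each group among genes that met the level there alone, list members (all of lists of up to 6, otherwise the 4 highest and the largest call in each direction), the 3 genes on each side of the 5 CPM limit, and the 5 highest head-to-head and overlapping pairs. Others were named after their values were seen.

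The whole table was fitted in R 4.3.3 with edgeR 4.0.16 (filterByExpr by group, TMM, glmQLFit and glmQLFTest with group as the only term, Benjamini-Hochberg adjustment over 13801 genes, threshold 0.05), and the step was tested on simulated data. DESeq2 1.42.0 was an alternative. All 285 passed the filter, but since many had to reach 5 CPM in 1 group to enter, p-values are read only at a mean of at least 10 CPM, a limit that does not see the group and that every such lincRNA and antisense gene above it shares. A count of 0 was read as at most 3 counts in a library (0.292 to 0.356 CPM, counting error only), and folds against it are lower bounds. P-values measure the spread between 2 samples per group, which the labels call biological replicates. Near-identical copies were searched with BLAST 2.17.0, and figures drawn in Python 3.11.15 with matplotlib 3.10.9.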

Additional observations from a re-analysis of the deposited data

How the results depend on the processing

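The counts of 52 higher and 31 lower genes stayed within 1.5 times under DESeq2 size factors, library totals alone (58 and 26), the DESeq2 Wald test (46 and 27), no filter, a floor of 10 counts per library, leaving out chromosome 7 (chosen after seeing the data), and each left-out library (46 to 51 higher, 26 to 29 lower). Library totals alone also raised the median of all genes at that mean from -0.06 to 0.04 and that of the long noncoding RNAs from 0.20 to 0.31 on the log2 scale. A mean of at least 5 CPM gave 109 higher (46 lower). That limit lies at the level that chose the genes and favours those high in 1 group, so neither count is read as a result. A mean of at least 20 CPM gave 20 higher and 15 lower, and a log2 fold change of at least 1 in size gave 25 and 11. The genes whose exons overlap no gene of the other strand, an alternative chosen after seeing the data, gave 27 and 16. Fewer genes qualify by construction in the last 3. The share of all genes called at these cuts was not counted, so these counts have no background beside them.

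The level set the number of members, 599 at 2 CPM and 145 at 10 CPM, and the share that met it in 1 group only was 47.4% and 52.4% there, and 47.6% to 51.8% with each library left out. For members and their nearest coding gene r moved from 0.55 to 0.71 for pairs that do not overlap, 0.64 for head-to-head pairs, 0.39 at a mean of at least 10 CPM, and, chosen after seeing the data, 0.59 for changes under 5 in size and 0.49 to 0.57 with each library left out. The median difference from the chromosome was 0.19 with all tested genes in place of coding ones. The cause of these moves was not tested. For the 37 named genes with a p, 343 of 367 recomputed values stayed on their side of the threshold, 18 calls were lost, 6 gained and 0 reversed. MALAT1 and HOXB-AS3 lost their call under DESeq2's Wald test (adjusted p = 0.366 and 0.066).

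With the replicate number as a block, 51 genes were higher and 30 lower. The deviations of same-numbered libraries from their group means correlated at -0.0216 over genes, so they shared no visible pattern. This value cannot tell whether the samples were prepared in pairs.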
